A study of Caenorhabditis elegans and Caenorhabditis briggsae with 12 samples.

Results

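The heat shock (HS) response of C. briggsae strain AF16 was measured in whole L2 larvae held at 34 °C for 30 min, in 3 HS libraries, against larvae kept at 20 °C (non-heat shock, NHS), in 3 NHS libraries. These 6 of the 12 libraries of the series were taken by their species and temperature, with all 21168 C. briggsae genes of 41381 genes listed over both species. AF16 is the wild-type reference strain of C. briggsae, a close relative of C. elegans. No transgene, mutation or drug was used in either group. The other 6 libraries come from C. elegans strain N2 under the same design, and are used here only where orthologs are set side by side. Values are normalized read counts per gene, and fold changes are on the log2(value + 1) scale, HS over NHS, with their standard error (SE). Since whole larvae were used, more RNA per cell and more cells of a type cannot be told apart.

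In the heat shock response, misfolded protein releases the transcription factor HSF-1 from its chaperone partners, and HSF-1 then binds heat shock elements (HSEs) in DNA and drives the genes of chaperones. Small heat shock proteins hold unfolded protein, HSP70 and its J-domain and HSP110 partners refold it, and HSP90 with its co-chaperones matures kinases and receptors. Helitrons are transposable elements that can carry HSEs into new promoters, and the series compares genes whose upstream HSEs lie within Helitrons (Hac-HSEs) with genes whose HSEs lie elsewhere (Hin-HSEs). Gene names were available for 3583 of the 21168 C. briggsae genes. Of these, 2833 were named without regard to their C. briggsae response, namely 1999 in a table ordered by identifier and 953 as orthologs of genes raised in C. elegans, with some in both, and 750 were named only because the study listed them as raised in C. briggsae. Counts of raised members are therefore given both with and without the last kind. A list of genes chosen on these libraries is not independent evidence of its direction.

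The libraries held an estimated 34000000 to 52600000 reads, and 6.95% to 10.1% of genes were listed at 0. The 10 genes with the most normalized counts, which are not corrected for gene length, took 17.1, 15.8 and 15.4% of all normalized counts in the HS libraries, against 8.26, 8.30 and 8.48% in the NHS libraries. The first principal component carried 71.3% of the variance and set HS libraries (49.5 to 57.2) apart from NHS libraries (−56.0 to −52.3). The second carried 14.6% and set HS replicate 1 (49.4) apart from HS replicates 2 and 3 (−27.3 and −19.1), with the NHS libraries between −2.07 and −0.224. Pearson correlations of log2 values across genes were 0.972 and 0.975 between HS replicate 1 and HS replicates 2 and 3, 0.986 between HS replicates 2 and 3, and 0.988 to 0.990 among NHS libraries. HS replicate 1 differed from the mean of the other HS libraries by over 2-fold in 2361 of 18470 genes (12.8%), in 1503 of them upward and in 858 downward. The same measure gave 1428 genes for HS replicate 2 and 1168 for HS replicate 3, and 810, 982 and 960 for the NHS libraries. The SD of the log2 difference was 0.72 for HS replicate 1, 0.58 and 0.54 for HS replicates 2 and 3, and 0.43 to 0.47 for the NHS libraries. Depth did not set HS replicate 1 apart, at an estimated 38500000 reads, with 41600000 and 38000000 in HS replicates 2 and 3. The plot of genes by which each library departs from its group gives these counts.

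**Figure D1:**
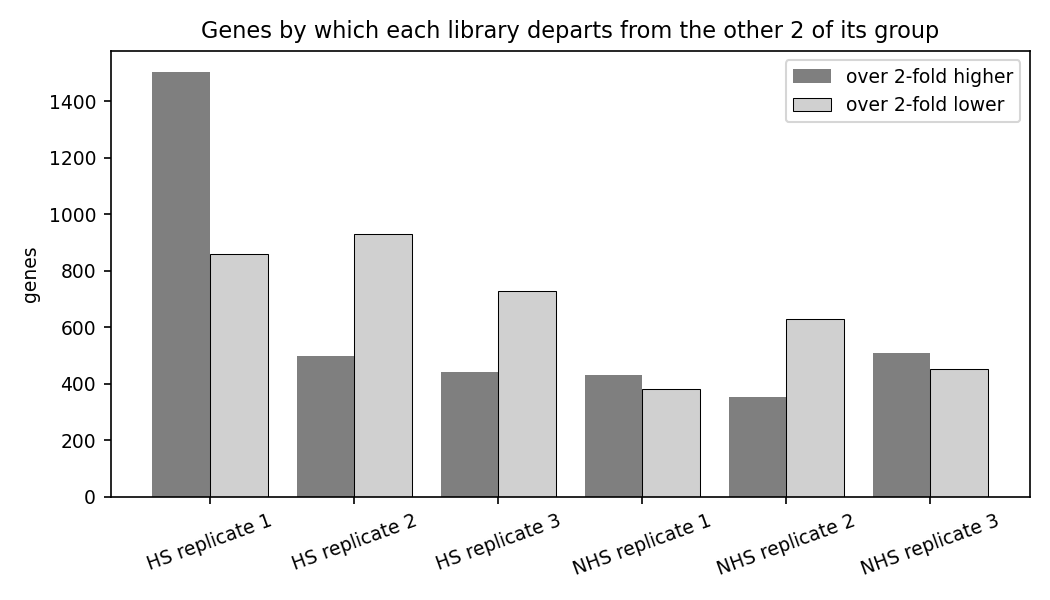
Bars give the number of genes (y axis) that lay over 2-fold higher (dark) or lower (pale) in each library (x axis) than the mean of the other 2 libraries of its group, over 18470 genes with a mean of at least 2. HS replicate 1 stands at 1503 genes higher and 858 lower, against at most 507 higher and 930 lower in any other library.

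Heat shock raised far more genes than it lowered. The 18470 genes whose 6 values averaged 2 or more were tested with limma, and a gene was called where its Benjamini-Hochberg adjusted p lay under 0.01 and its change passed 2-fold. By that rule 832 genes (4.5%) were up and 320 (1.73%) were down. Among tested genes named without regard to their response, 229 of 2513 (9.11%) were up and 40 (1.59%) down. These include the orthologs of genes raised in C. elegans, of which 20.7% were up. Every HS value lay above every NHS value in 25.7% of genes, called or not, and below every NHS value in 24.3%. Of the raised genes, 487 passed 4-fold, 115 passed 16-fold and 24 passed 64-fold, with a median log2 fold change of 2.25. Lowered genes moved less, with a median of −1.32 and 44 past 4-fold. The median over all genes tested was 0.01. Scaling the libraries to equal totals moved that median to −0.36 and turned the split of calls round, to 669 up and 1479 down (31.1% up, against 72.2% up as deposited). Scaling to equal upper quartiles left 837 up and 314 down. A gene's direction is given here relative to the authors' normalization. Without HS replicate 1, 1228 genes were up (6.74% of 18218) and 649 were down (3.56%), and 808 of the 832 up calls and 293 of the 320 down calls remained. Without any 1 of the other 5 libraries the counts were lower, at 348 to 502 up and 68 to 213 down, and 312 up calls and 54 down calls held in all 6 such fits. Calls were most frequent among genes with a mean of 10 to 100 (8.62% up of 4573) and were 3.52% up of 4862 genes above 1000.

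Small heat shock protein genes held some of the steepest rises. CBG04592, listed against 3 C. elegans genes (hsp-16.41, hsp-16.48, hsp-16.49), had 139214, 211562 and 179250 normalized counts in HS larvae, against 548, 691 and 709 in NHS larvae (log2 fold change 8.07, SE 0.17, adjusted p = 9.01e-07 by limma). CBG19186, an ortholog of hsp-16.1, hsp-16.11 and hsp-16.2, had 179321, 252790 and 218459 in HS larvae and 897, 996 and 1112 in NHS larvae (7.75, SE 0.13, adjusted p = 2.06e-07 by limma). All HS values stood more than 100-fold above all NHS values in both genes. CBG19185 (7.70, SE 0.13) and CBG04607 (7.83, SE 0.22), both listed against hsp-16.41, rose to the same extent, and in these 4 genes HS replicate 1 was the lowest HS library. The hsp-16 proteins are the cytosolic small heat shock proteins of nematodes and are hardly made without stress. Reads of such near-identical genes can be divided between them during quantification, so the values of single copies are uncertain. CBG04591, CBG04608, CBG19184 and CBG19187, for which no ortholog was listed and whose identifiers adjoin those of the 4 hsp-16 genes, rose by 7.53 to 8.17 on the log2 scale, and were named here after their values were seen.

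Not all small heat shock proteins moved. Cbr-hsp-43 had 4630, 9562 and 7423 normalized counts in HS larvae, against 1174, 1218 and 1129 in NHS larvae (2.56, SE 0.25, adjusted p = 1.14e-03 by limma). Cbr-hsp-12.3 had 201, 325 and 197 in HS larvae and 144, 182 and 161 in NHS larvae (0.53, SE 0.21), and Cbr-hsp-12.6 had 20.7, 14.0 and 7.15 in HS larvae and 3.94, 22.7 and 4.11 in NHS larvae (0.72, SE 0.68). Neither passed the test, and the Cbr-hsp-12.6 groups overlapped. Cbr-sip-1 (1.33, SE 0.31) missed the threshold with all libraries, at a limma adjusted p of 0.0176, and passed it without HS replicate 1 (1.68). Of 8 named members 5 were up and 0 down, with a median of 5.12, against 4.5% up and a median of 0.01 over all genes. Among the 4 members named without regard to their C. briggsae response, 2 were up, both of them hsp-16 genes (CBG04592 and CBG19186), with a median of 4.23.

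**Figure D2:**
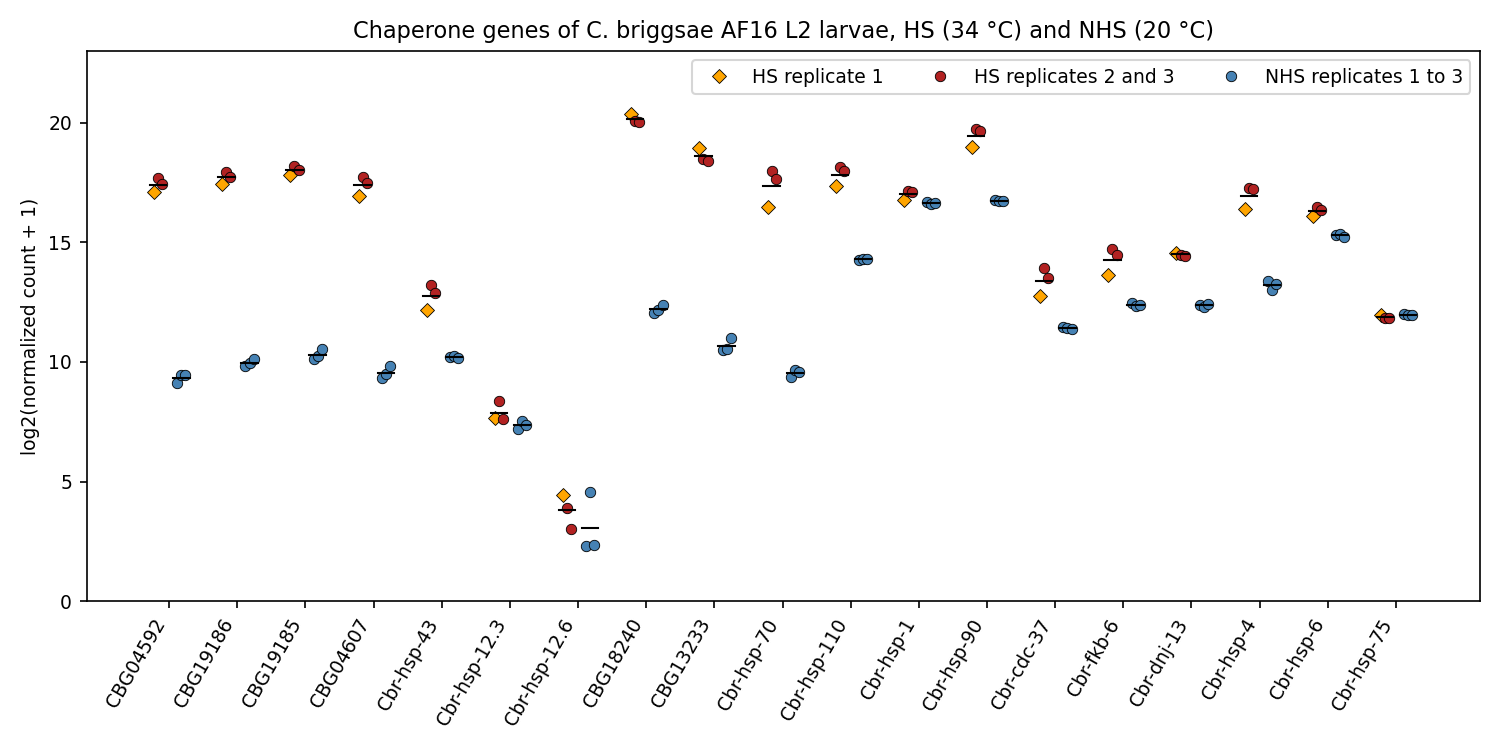
Each point is 1 library's log2(normalized count + 1) (y axis) for a chaperone gene (x axis), with HS replicate 1 as a diamond, HS replicates 2 and 3 as red circles left and NHS libraries as blue circles right. Short bars are group means. HS replicate 1 lies under the other HS libraries for Cbr-hsp-70, Cbr-hsp-90 and Cbr-cdc-37 and above them for CBG18240 and CBG13233.

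The inducible HSP70 genes rose as steeply as the hsp-16 genes. CBG18240, listed as the ortholog of F44E5.4, an inducible cytosolic HSP70 of C. elegans, had 1356114, 1105984 and 1069246 normalized counts in HS larvae, against 4271, 4664 and 5360 in NHS larvae (7.95, SE 0.11, adjusted p = 6.92e-08 by limma). CBG13233, listed against F44E5.4 and F44E5.5, had 498161, 359965 and 347160 in HS larvae and 1425, 1506 and 2019 in NHS larvae (7.92, SE 0.18). Cbr-hsp-70 had 89996, 259266 and 203779 in HS larvae and 651, 820 and 756 in NHS larvae (7.83, SE 0.37, adjusted p = 9.65e-05 by limma). HS replicate 1 was the highest HS library for CBG18240 and CBG13233 but the lowest for Cbr-hsp-70, where it held less than 0.5 times the level of either other HS library. CBG13232, CBG13234 and CBG18239, with identifiers next to these genes and no ortholog listed, rose by 7.85 to 7.91 and were also highest in HS replicate 1. All 5 of these CBG genes were among the 10 genes with the most normalized counts in every HS library, and in no NHS library. Without HS replicate 1 the change of Cbr-hsp-70 was 8.28.

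Cbr-hsp-110, a nucleotide exchange partner of HSP70, had 167014, 289507 and 260698 normalized counts in HS larvae, against 19828, 19916 and 20218 in NHS larvae (3.54, SE 0.19, adjusted p = 1.73e-04 by limma). Cbr-hsp-1, the constitutive HSP70, had 112371, 145483 and 138818 in HS larvae and 104141, 99860 and 103452 in NHS larvae (0.36, SE 0.09), a shift that did not pass and that was −0.03 with equal totals. CBG19481, also listed against C. elegans hsp-70, had 144, 89.5 and 124 in HS larvae and 103, 147 and 108 in NHS larvae (−0.01, SE 0.22), with overlapping groups. Over the 6 named HSP70 and HSP110 genes 4 were up and 0 down, with 2 of 4 up among those named without regard to the response (median 5.68 for all 6 and 1.95 for these 4).

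HSP90 and most of its partners rose by less. Cbr-hsp-90 had 517743, 868149 and 811881 normalized counts in HS larvae, against 110924, 108373 and 109056 in NHS larvae (2.71, SE 0.19, adjusted p = 3.91e-04 by limma). The kinase co-chaperone Cbr-cdc-37 had 6878, 15327 and 11674 in HS larvae and 2778, 2739 and 2667 in NHS larvae (1.97, SE 0.27). Cbr-unc-23, related to the BAG2 co-chaperone of HSP70, had 8985, 27109 and 20388 in HS larvae and 3240, 2957 and 3209 in NHS larvae (2.44, SE 0.38). In each of the 3 genes HS replicate 1 was the lowest HS library and still lay above every NHS library. The immunophilin Cbr-fkb-6 (1.87, SE 0.26), the myosin chaperone Cbr-unc-45 (1.53, SE 0.23), the HSP70-HSP90 adaptor Cbr-sti-1 (1.12, SE 0.21) and the J-domain gene Cbr-dnj-12 (1.66, SE 0.25) were up with the same order of HS libraries. The J-domain gene Cbr-dnj-13 differed in that respect, with 23975, 22913 and 22194 in HS larvae and 5285, 4980 and 5524 in NHS larvae (2.13, SE 0.06, adjusted p = 9.34e-07 by limma). Cbr-aip-1, which binds the proteasome under arsenite stress in C. elegans, had 4681, 5310 and 4825 in HS larvae and 476, 444 and 604 in NHS larvae (3.29, SE 0.12).

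Of 12 named HSP90, J-domain and partner genes 9 were up and 0 down, with a median of 1.77. Among the 6 named without regard to the response 3 were up (Cbr-aip-1, Cbr-dnj-13 and Cbr-unc-23; median 1.20), while Cbr-dnj-2 (−0.60), Cbr-dnj-20 (−0.07) and Cbr-dnj-22 (0.28) were not called. The calls of Cbr-cdc-37, Cbr-fkb-6, Cbr-unc-45 and Cbr-dnj-12 were lost without HS replicate 3 or any 1 NHS library, and those of Cbr-sti-1 and Cbr-unc-23 also without HS replicate 2, with limma adjusted p of up to 0.0342. All 6 held without HS replicate 1, with log2 fold changes of 2.29, 2.20, 1.81, 1.96, 1.37 and 2.91 in that order.

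Chaperones of the organelles split. Cbr-hsp-4, the HSP70 (BiP) of the endoplasmic reticulum, had 84676, 156900 and 152035 normalized counts in HS larvae, against 10808, 8299 and 9800 in NHS larvae (3.72, SE 0.25, adjusted p = 3.38e-04 by limma). The mitochondrial HSP70, Cbr-hsp-6, had 69465, 90452 and 83244 in HS larvae and 40245, 41417 and 38358 in NHS larvae (1.01, SE 0.09), just past 2-fold, and fell under that limit without HS replicate 2, HS replicate 3 or NHS replicate 3. Cbr-hsp-75, a mitochondrial relative of HSP90, had 3945, 3643 and 3613 in HS larvae and 4037, 3970 and 3937 in NHS larvae (−0.09, SE 0.05). Cbr-ddl-1, whose C. elegans protein restrains HSF-1, had 321, 402 and 394 in HS larvae and 343, 385 and 321 in NHS larvae (0.09, SE 0.12), and its groups overlapped. It was the only named member of the list of HSF-1 and its regulators.

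Among genes of protein degradation, the proteasome lid subunit Cbr-rpn-3 had 15669, 26303 and 21926 normalized counts in HS larvae, against 6136, 6298 and 6125 in NHS larvae (1.75, SE 0.17, adjusted p = 1.04e-03 by limma). It was the single call among 6 tested ubiquitin conjugation and proteasome genes, and was named only through the study's list of raised genes. CBG17039, the ortholog of the cullin cul-6, had 1331, 1254 and 1215 in HS larvae and 498, 499 and 535 in NHS larvae (1.31, SE 0.07, adjusted p = 5.36e-05 by limma). Cullins and the Skp1-related skr proteins form SCF ubiquitin ligases. Of 17 named genes of SCF and other E3 ubiquitin ligases 8 were up, CBG15626 (skr-10, 1.88, SE 0.19) with the largest change among them, and 1 was down. None of the 6 named without regard to the response was up, so all 8 were named only through the study's list of raised genes. Over all tested genes 4.5% were up. All 9 cytosolic ribosomal protein genes lay slightly above NHS (median 0.33) and none reached 2-fold. With equal totals their median was −0.05. For 8 mitochondrial ribosomal protein genes the median was 0.10 and none was called.

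Genes tied to defence and detoxification held raised members. Beside the counts below, 4.5% of all tested genes were up, and 9.11% of those named without regard to the response. Many list members were so named as orthologs of genes raised in C. elegans, of which 20.7% were up. In identifier order 1 of 24 P450 and conjugating enzyme genes (4.17%) and 1 of 9 C-type lectins (11.1%) were up. No pals gene was taken in that order. The pals genes, many of which answer intracellular pathogens in C. elegans, had 4 of 6 up with a median of 2.54, and 3 of 5 up among those named without regard to the response (median 2.35). CBG23492, listed against pals-29, had 58.4, 82.0 and 33.4 normalized counts in HS larvae and 2.63, 2.84 and 2.06 in NHS larvae (3.99, SE 0.38, adjusted p = 6.33e-04 by limma). CBG23490 (2.82, SE 0.32), CBG23491 (2.73, SE 0.43) and CBG23489 (2.35, SE 0.37) have adjoining identifiers and rose with it, and the calls of CBG23491 and CBG23489 were lost without HS replicate 2, HS replicate 3 or NHS replicate 1, and also without NHS replicate 3 for the first and NHS replicate 2 for the second, at limma adjusted p of up to 0.0220. Of 21 tested C-type lectin genes 5 were up, and the same count among the 20 named without regard to the response, one of them being Cbr-clec-266 with 335, 569 and 581 in HS larvae and 12.5, 18.0 and 27.8 in NHS larvae (4.63, SE 0.33). Of 36 cytochrome P450, glutathione transferase and glucuronosyltransferase genes 5 were up, with a median of 0.18, and 4 of 32 (12.5%) among those named without regard to the response. Cbr-ugt-44 led them with 3176, 6512 and 8308 in HS larvae and 399, 415 and 321 in NHS larvae (3.88, SE 0.34). Without HS replicate 1 the count in this last list was 10 up and 1 down.

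**Figure D3:**
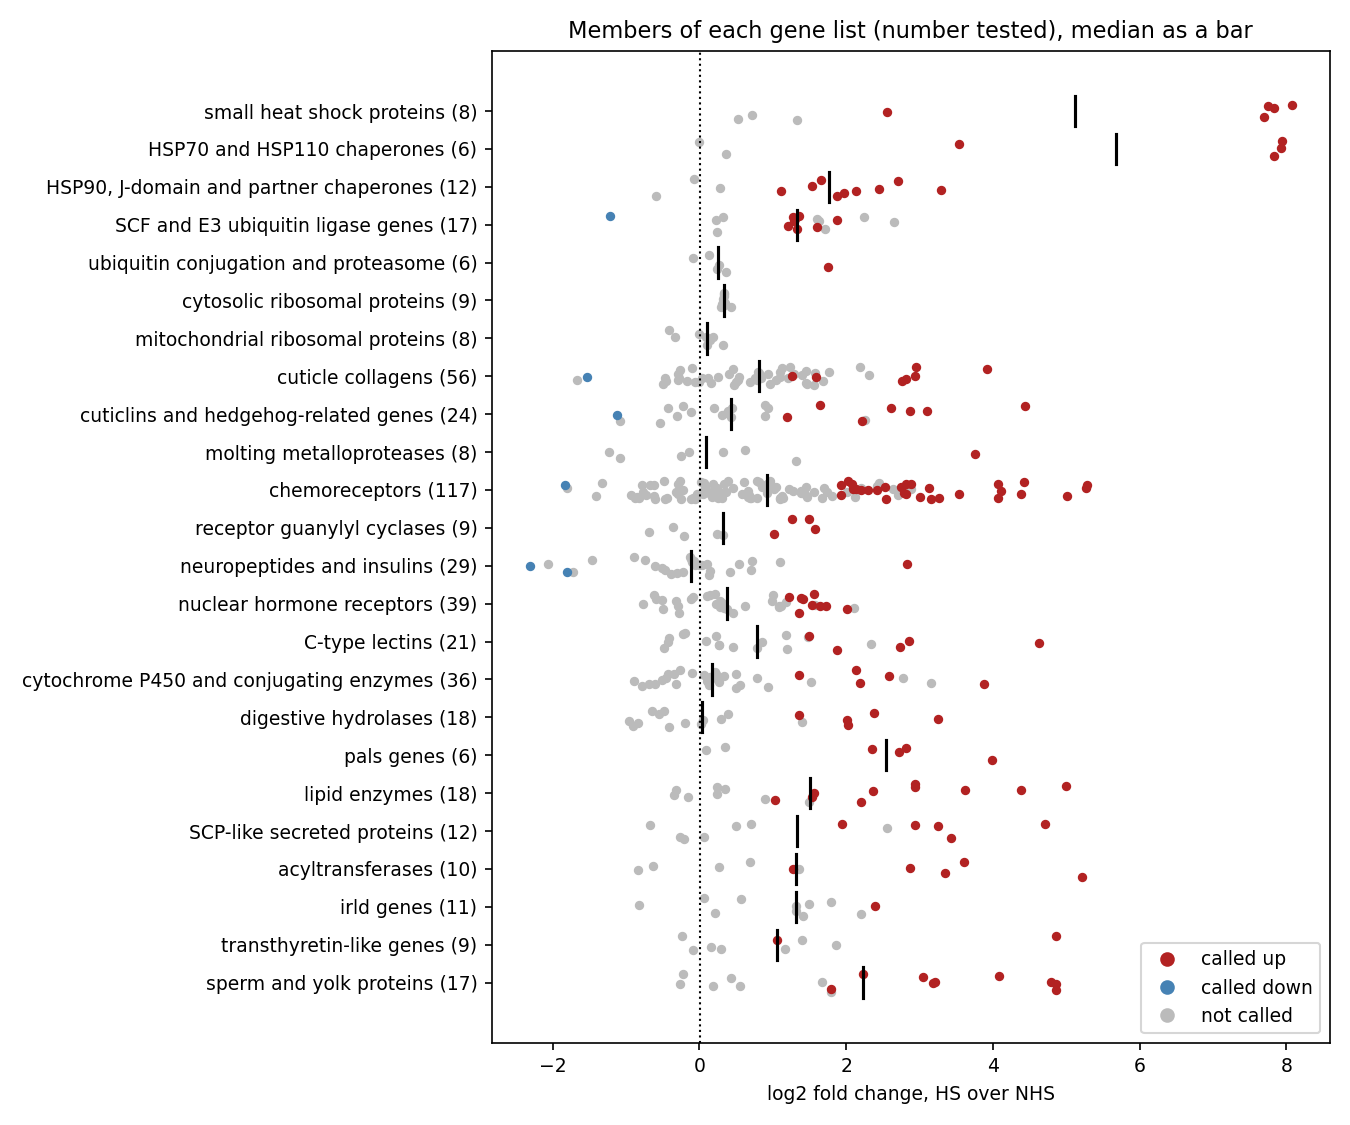
Each point is a tested member of a gene list with at least 6 tested members (y axis, number tested in brackets) at its log2 fold change, HS over NHS (x axis), red where called up, blue where called down and grey where not called. Bars are list medians and the dotted line is the median of all genes, 0.01. With all members counted, the HSP70 list (median 5.68) and the small heat shock protein list (5.12) lie farthest to the right. Over members named without regard to their response these medians were 1.95 and 4.23.

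Few cuticle collagens were called. Of 57 collagen genes 56 passed the filter, and 7 were up and 1 down, with a median of 0.81. Of the 48 named without regard to the response 2 were up and 1 down (4.17% and 2.08%). The shares were 4.5% and 1.73% over all genes, and 9.11% and 1.59% over all genes so named. The median of these 48 was 0.72, and 0.29 without HS replicate 1. Many of those 48 were named as orthologs of genes raised in C. elegans. The 13 collagens taken in identifier order had a median of −0.06 with 0 up and 1 down by limma. Cbr-col-97 had 1747, 1772 and 1422 normalized counts in HS larvae, against 180, 274 and 198 in NHS larvae (2.93, SE 0.17, adjusted p = 7.35e-05 by limma). Cbr-col-56 (2.96, SE 0.21) and Cbr-col-71 (2.76, SE 0.19) also rose with groups that did not overlap, while Cbr-col-138 fell, to 20.7, 19.4 and 13.1 in HS larvae, against 46.0, 71.9 and 43.2 in NHS larvae (−1.53, SE 0.29). The call of Cbr-col-138 was lost without any 1 library other than HS replicate 1, at limma adjusted p of up to 0.0310. HS replicate 1 lay over 2-fold above the other HS libraries in 17 of 56 collagens and as far below in 4. These are 30.4% and 7.14%, against 8.14% and 4.65% of all genes. Over the orthologs of genes raised in C. elegans, as which many collagens were named, the shares were 24.1% and 4.96%. The 13 collagens in identifier order had 3 above and 2 below. Without HS replicate 1 all 56 had a median of 0.67, again with 7 up and 1 down.

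Cuticlins and hedgehog-related genes, which shape the apical matrix, had 7 of 24 up and 1 down, with 2 further members under the filter. Among those named without regard to the response 3 of 20 were up. Over all genes 4.5% were up and 1.73% down, and 9.11% were up over all genes so named. The 10 members taken in identifier order had 1 up and 1 down, with a median of 0.04. Without HS replicate 1 these 10 had 1 up and 2 down, with a median of −0.30. Cbr-ptr-16, a patched-related membrane protein taken in identifier order, had 2664, 2558 and 2317 normalized counts in HS larvae, against 122, 99.4 and 123 in NHS larvae (4.45, SE 0.11, adjusted p = 6.44e-07 by limma). All HS libraries were close to each other. Cbr-grl-14, a ground-like gene, was up as well (3.11, SE 0.20). Of 8 astacin-type metalloproteases, which process cuticle proteins during molting, Cbr-nas-30 alone was up, with 1045, 3754 and 2140 in HS larvae and 126, 185 and 145 in NHS larvae (3.75, SE 0.44). Its call was lost without NHS replicate 1 or NHS replicate 3, at limma adjusted p of up to 0.0122.

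Chemoreceptor genes, most of which encode sensory G protein-coupled receptors, made up the longest list. Of 148 such genes listed, 117 passed the filter on low values, and of these 29 were up and 1 down (24.8% and 0.855%), with a median of 0.92. Those named without regard to the response gave 9 up and 1 down of 91 (median 0.46). These shares were 9.89% and 1.10%, against 9.11% and 1.59% of all genes so named. The 32 taken in identifier order gave 0 up and 0 down by limma (median 0.35). Without HS replicate 1, 3 of these 32 were up and their median was 0.11. Cbr-srh-17 had 301, 197 and 254 normalized counts in HS larvae, against 7.22, 6.62 and 3.08 in NHS larvae (5.29, SE 0.32, adjusted p = 8.55e-05 by limma). Cbr-str-204 had 265, 61.5 and 73.9 in HS larvae and 2.63, 0.946 and 2.06 in NHS larvae, where these NHS values are worth only a few reads. Cbr-str-206 had 68.2, 6.47 and 4.77 in HS larvae and 2.63, 0 and 1.03 in NHS larvae and was not called. In both, HS replicate 1 was far above HS replicates 2 and 3, as it was by over 2-fold in 31 of the 117 genes, against 12 in which it was as far below (26.5% and 10.3%, against 8.14% and 4.65% of all genes). Over the orthologs of genes raised in C. elegans the shares were 24.1% and 4.96%. Over the 62 with a mean of at least 10 the counts were 8 above and 9 below. Cbr-srsx-6 was the member that fell, with 6.09, 6.47 and 4.77 in HS larvae and 23.6, 19.9 and 25.7 in NHS larvae (−1.83, SE 0.29), a call lost without HS replicate 3 or any 1 NHS library (limma adjusted p of up to 0.0246).

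Among signalling genes of neurons, the 29 tested neuropeptide and insulin genes had a median of −0.11, with 1 up and 2 down. These are 3.45% and 6.90%, against 4.5% and 1.73% of all genes. Without HS replicate 1 the list had 2 up and 4 down. Cbr-ins-12 had 96.2, 233 and 255 normalized counts in HS larvae, against 22.3, 31.2 and 20.6 in NHS larvae (2.83, SE 0.38). Both ins-6 copies fell. Cbr-ins-6.1 had 51.1, 34.5 and 28.6 in HS larvae and 138, 133 and 124 in NHS larvae (−1.80, SE 0.23, adjusted p = 1.65e-03 by limma), and Cbr-ins-6.2 had 31.7, 12.9 and 15.5 in HS larvae and 129, 79.5 and 86.3 in NHS larvae (−2.31, SE 0.36). INS-6 is an insulin-like agonist of the DAF-2 receptor that promotes growth out of the dauer stage in C. elegans. In each copy HS replicate 1 was the HS library nearest to the NHS level. Without NHS replicate 1 or NHS replicate 3 the calls of all 3 insulin genes were lost, those of the ins-6 copies also without NHS replicate 2, and that of Cbr-ins-6.2 also without HS replicate 2 or 3, at limma adjusted p of up to 0.0205. Of 9 guanylyl cyclases 4 were up (44.4%), and 2 of 7 among those named without regard to the response (28.6%, and 1 gene without HS replicate 1). Over all genes so named 9.11% were up. Of the 6 in identifier order 1 was up, and 0 without HS replicate 1. The smallest change among the 4 was that of Cbr-gcy-31 (1.02, SE 0.19). Its call held in none of the fits that left out 1 library (limma adjusted p of up to 0.0320).

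The genes that fell were less often named, with 40 of 320 having a name against 803 of 832 that rose, so the account of lowered genes rests on the tables in identifier order. Of 1766 tested genes in that order, 72 were up (4.08%) and 36 down (2.04%), close to the shares over all genes. The choline transporter Cbr-cho-1, which supplies acetylcholine synthesis, had 392, 276 and 331 normalized counts in HS larvae, against 753, 793 and 763 in NHS larvae (−1.22, SE 0.13, adjusted p = 9.40e-04 by limma). The serotonin receptor Cbr-ser-7 had 120, 78.8 and 102 in HS larvae and 219, 244 and 225 in NHS larvae (−1.20, SE 0.17). Cbr-ggr-3, of the GABA- and glycine-gated chloride channel family, had 80.1, 68.8 and 51.9 in HS larvae and 160, 148 and 143 in NHS larvae (−1.18, SE 0.18). Cbr-svh-1, a growth factor-like gene of axon regeneration in C. elegans, had 140, 100 and 116 in HS larvae and 340, 303 and 369 in NHS larvae (−1.51, SE 0.15, adjusted p = 8.23e-04 by limma). No HS value of these 4 genes reached an NHS value, and 24.3% of all tested genes had every HS value below every NHS value. The calls of Cbr-ser-7 and Cbr-ggr-3 were lost without any 1 NHS library, and also without HS replicate 3 for Cbr-ser-7 and HS replicate 2 for Cbr-ggr-3 (limma adjusted p of up to 0.0239). The neuron marker Cbr-rab-3 had 2394, 1749 and 1676 in HS larvae and 2180, 2201 and 2114 in NHS larvae (−0.18, SE 0.13), and the intestinal filament gene Cbr-ifb-2 had 22671, 19663 and 18876 in HS larvae and 17193, 18789 and 17407 in NHS larvae (0.19, SE 0.08). Neither marker was called. WBGene00271041, an unnamed gene, had 4.87, 2.16 and 0 in HS larvae and 26.9, 27.4 and 31.9 in NHS larvae (−3.49, SE 0.62), and lost its call in 4 of the 6 fits that left out 1 library.

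Among genes of lipid use and digestion some members rose. Of all tested genes 4.5% were up, and of those named without regard to the response 9.11%. In identifier order 2 of 8 lipid enzymes, 1 of 10 digestive hydrolases and 2 of 23 nuclear hormone receptor genes were up. Of 18 tested lipid enzymes 10 were up and 0 down (median 1.51), and 3 of 11 among those named without regard to the response, whose median was 0.36, and −0.03 with equal totals. Cbr-acs-18, an acyl-CoA synthetase, had 464, 266 and 272 in HS larvae and 8.54, 16.1 and 21.6 in NHS larvae (4.39, SE 0.36, adjusted p = 3.85e-04 by limma). Cbr-acdh-4, an acyl-CoA dehydrogenase, had 76.7, 61.5 and 42.9 in HS larvae and 0.657, 0.946 and 1.03 in NHS larvae, each of these NHS values being that of 1 read. Outside that list, the carnitine palmitoyltransferase Cbr-cpt-1, which brings fatty acids into mitochondria, had 10109, 23965 and 19133 normalized counts in HS larvae, against 4445, 4612 and 5496 in NHS larvae (1.79, SE 0.31). The acid sphingomyelinase Cbr-asm-1, also outside it, had 2747, 3049 and 2350 in HS larvae and 334, 314 and 299 in NHS larvae (3.09, SE 0.10, adjusted p = 2.85e-06 by limma). Of 18 digestive hydrolases 5 were up with a median of 0.04, which turned to −0.21 without HS replicate 1 and −0.35 with equal totals. Among the 14 named without regard to the response 2 were up (14.3%), with a median of −0.30. The raised members included the cathepsin B-like Cbr-cpr-1, with 21223, 41163 and 41194 in HS larvae and 6458, 5516 and 7124 in NHS larvae (2.38, SE 0.27). The call of Cbr-cpt-1 was lost without any 1 library other than HS replicate 1 (limma adjusted p of up to 0.0293), and that of Cbr-cpr-1 without NHS replicate 1 (0.0107). Of 39 nuclear hormone receptor genes 9 were up, and 15 without HS replicate 1. Among the 30 named without regard to the response 2 were up, and 6 without HS replicate 1. The 2 are 6.67%, against 4.5% of all genes and 9.11% of all genes so named. Cbr-nhr-3 had 1255, 1328 and 1805 in HS larvae and 561, 515 and 407 in NHS larvae (1.56, SE 0.17). The median of this list was 0.38 with all libraries and 0.62 without HS replicate 1. With equal totals its sign turned, at −0.0024.

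Genes best known from the germ line and the adult intestine were also detected in these larvae. Of 17 tested sperm and yolk protein genes 10 were up and 0 down (median 2.23), with 5 of 12 among those named without regard to the response, whose median was 1.73, and 1.12 without HS replicate 1. The 7 members not called had log2 fold changes of −0.26 to 1.79. The shares up were 4.5% over all genes, 9.11% over all genes named without regard to the response and 20.7% over orthologs of genes raised in C. elegans. Of the 12 members, 3 were taken in identifier order, with 1 up, and the others were named as such orthologs. Cbr-spe-4, a presenilin of sperm, had 124, 46.4 and 40.5 normalized counts in HS larvae, against 3.94, 6.62 and 7.19 in NHS larvae (3.21, SE 0.46). Outside that list, Cbr-fer-1, needed for sperm membrane fusion in C. elegans, had 224, 29.1 and 52.5 in HS larvae and 3.28, 3.79 and 2.06 in NHS larvae (4.17, SE 0.70). CBG14234, listed against the yolk protein vit-3, had 111, 17.3 and 46.5 in HS larvae and 1.31, 0.946 and 0 in NHS larvae. HS replicate 1 was the highest HS library in all 3, and 5 of the 17 members lay over 2-fold above the other HS libraries in it. The calls of the 3 were lost without any 1 NHS library, and for Cbr-fer-1 and CBG14234 also without HS replicate 3 (limma adjusted p of up to 0.0256). Without HS replicate 1 their changes were 2.71, 3.34 and 4.16, and the list had 9 up. CBG10317, listed against nspe-5, nspe-7 and Y38E10A.9, had 3262, 4964 and 3885 in HS larvae and 58.5, 43.5 and 41.1 in NHS larvae (6.37, SE 0.19, adjusted p = 1.80e-06 by limma), values that CBG24818 shared in every library. In all, 245 tested genes shared all 6 values with another gene, 14 of them up, and such genes cannot be told apart by these counts.

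Some genes were hardly detected without heat. Of the raised genes 30 were listed at 0 in all NHS libraries, and 4 lowered genes were listed at 0 in all HS libraries. CBG21014, the ortholog of Y43F11A.1, had 85.2, 169 and 83.5 normalized counts in HS larvae and was listed at 0 in NHS larvae. Cbr-zip-10, a bZIP transcription factor, had 751, 467 and 847 in HS larvae and 3.28, 0 and 33.9 in NHS larvae (6.98, SE 1.20). Its NHS libraries spread widely, and the call was lost without any 1 library other than NHS replicate 3 (limma adjusted p of up to 0.0619). The acyltransferase Cbr-oac-14 had 5478, 2739 and 4652 in HS larvae and 88.7, 91.8 and 163 in NHS larvae (5.21, SE 0.33, adjusted p = 3.07e-04 by limma), and 5 of 10 tested oac acyltransferase genes were up, with 3 of 8 up among those named without regard to the response. Of 12 tested SCP-like secreted protein genes 5 were up, of 9 transthyretin-like genes 2 and of 11 irld genes 1, with medians of 1.33, 1.05 and 1.32. Among those named without regard to the response the counts were 4 of 11, 1 of 7 and 1 of 11. These are 36.4%, 14.3% and 9.09%, against 9.11% of all genes so named. In identifier order the counts were 3 of 10, 0 of 3 and 1 of 5, and 2 of 3 for the oac genes. Cbr-gasr-8 had 6488, 2421 and 2736 in HS larvae and 81.4, 57.7 and 63.7 in NHS larvae (5.69, SE 0.38).

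The question of how far the responses of both species overlap was addressed through 953 C. briggsae orthologs of genes that the study lists as raised in C. elegans. Of 847 tested, 175 were up (20.7%, against 4.5% of all C. briggsae genes), 6 were down (0.708%) and 666 were not called. Their median log2 fold change was 0.79, against 0.01 over all genes, and 669 had a value above 0. Without HS replicate 1, 209 were up and 18 down with a median of 0.60. HS replicate 1 itself lay over 2-fold above the other HS libraries in 204 of these genes (24.1%) and as far below them in 42 (4.96%). With a mean of at least 10 the counts were 111 and 33 of 630 genes. Under the same rule 1791 of 17551 C. elegans genes (10.2%) were up and 486 (2.77%) down. Orthologs of C. elegans genes with upstream Hac-HSEs were up in 6 of 31 (19.4%), with a median of 0.69, and orthologs of those with Hin-HSEs in 43 of 177 (24.3%), with a median of 0.99. The histogram of changes in orthologs shows how these genes were shifted to higher values while most stayed below 2-fold.

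**Figure D4:**
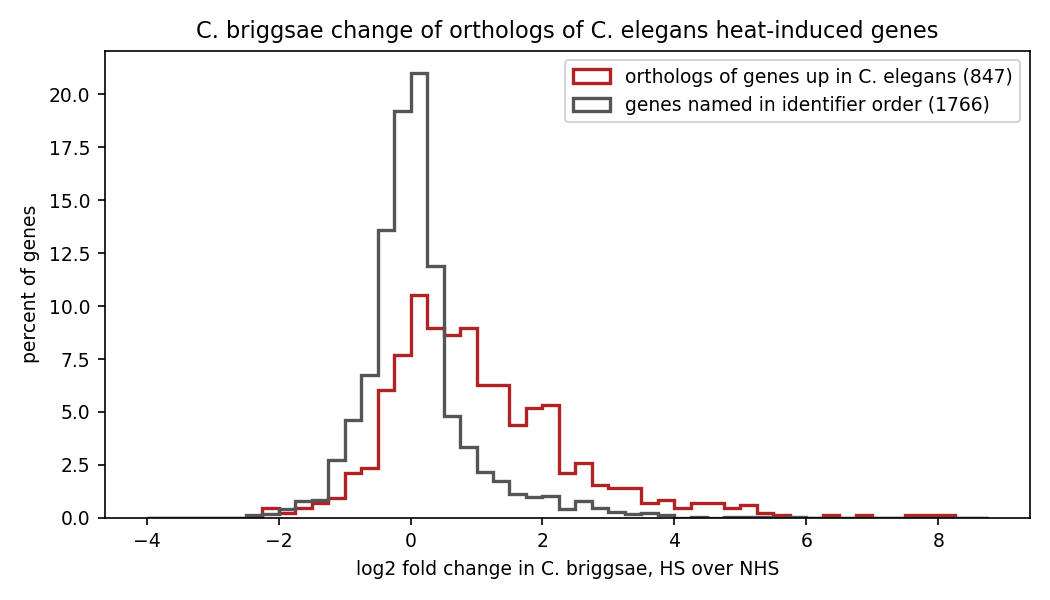
The lines give the percent of genes (y axis) at each log2 fold change in C. briggsae, HS over NHS (x axis, bins of 0.25), for 847 orthologs of genes raised in C. elegans (red) and for 1766 genes named in identifier order (grey). The red line has its median at 0.79 and 20.7% of its genes were up, against 0.01 and 4.08% for the grey line.

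Where 1 gene of each species formed a pair, the 2 changes were compared in a joined limma fit over 1175 pairs. The pairs come from genes that the study lists as raised in either species, in the same libraries. A larger change in the listed species was thus favoured by the choice of pairs. The adjusted p-values of the differences do not allow for that choice and are given as a description. For several genes no difference was called. Cbr-hsp-110 rose by 3.54 in C. briggsae and 2.93 in C. elegans (difference 0.61, SE 0.29), Cbr-aip-1 by 3.29 and 3.18 (0.11, SE 0.36), Cbr-dnj-13 by 2.13 and 1.62 (0.51, SE 0.24), and the collagen Cbr-col-97 by 2.93 and 2.89 (0.05, SE 0.35). None of these 4 differences passed an adjusted p of 0.01, which does not show that the changes were equal. Others differed. Cbr-cdc-37 rose by 1.97, while its C. elegans ortholog had 1962, 2068 and 2078 normalized counts in HS larvae and 2002, 1951 and 2010 in NHS larvae (difference 1.94, SE 0.32, adjusted p = 1.22e-04 by limma). The dynein-associated Cbr-nud-1 had 5235, 15937 and 12950 in HS larvae and 1408, 1485 and 1463 in NHS larvae (2.82, SE 0.39), against a change of −0.10 in C. elegans (difference 2.92, SE 0.42). Its own call was lost without HS replicate 3 or any 1 NHS library (limma adjusted p of up to 0.0169), and its change was 3.31 without HS replicate 1. In the other direction hsp-12.6 rose by 4.54 and hsp-12.3 by 3.62 in C. elegans, where neither C. briggsae ortholog was called (differences −3.82, SE 0.74, and −3.09, SE 0.34).

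All genes that the study lists with upstream HSEs were taken from those it found raised in these libraries, so their direction is no result, and only their values are described. All 39 Hac-HSE genes and all 461 Hin-HSE genes had a mean of at least 2, with 26 genes in both. Under the test used here 33 of the 39 and 359 of the 461 were up, and 38 and 429 were up without HS replicate 1. Genes with Hac-HSEs had log2 fold changes of 1.09 to 5.05, around a median of 1.87 (interquartile range 1.57 to 2.90), and genes with Hin-HSEs had 1.01 to 8.17, around a median of 2.09 (1.46 to 3.16). The median normalized count was 131 in HS larvae and 31.4 in NHS larvae for the first, and 168 in HS larvae and 34.7 in NHS larvae for the second. The steepest Hac-HSE gene, CBG04763, had 133, 31.3 and 50.1 in HS larvae and 1.97, 0 and 1.03 in NHS larvae. The chaperones described above carry Hin-HSEs in that list in most cases, CBG04592, CBG18240 and Cbr-hsp-90 among them, whereas the cullin CBG17039, Cbr-cpt-1, Cbr-asm-1 and Cbr-nud-1 stand in both lists.

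CBG00919, with Helitron-derived HSEs upstream, had 388, 378 and 364 normalized counts in HS larvae, against 22.3, 36.9 and 34.9 in NHS larvae (3.57, SE 0.20, adjusted p = 6.31e-05 by limma). The HS libraries were nearly equal and the call held without any 1 library. Its C. elegans ortholog C01G6.3 had 11.5, 0 and 6.90 in HS larvae and 7.86, 1.67 and 6.21 in NHS larvae. CBG26851, which may encode the Rep-Helicase of a Helitron, had 918, 189 and 225 in HS larvae and 40.1, 31.2 and 41.1 in NHS larvae (3.16, SE 0.58, adjusted p = 9.04e-03 by limma). HS replicate 1 stood more than 4-fold above both other HS libraries. The change was 2.44 without HS replicate 1, and the call was lost without any other single library (limma adjusted p of up to 0.0324). Cbr-col-52, the ortholog of a C. elegans gene with Hac-HSEs, had 12.2, 2.16 and 2.38 in HS larvae and 4.60, 1.89 and 2.06 in NHS larvae (0.50, SE 0.67). Its groups overlapped, and its single high value came from HS replicate 1.

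The departure of HS replicate 1 was also described in the genes that the other libraries call. Among 1228 genes called up from HS replicates 2 and 3 against the NHS libraries, 807 (65.7%) were past 2-fold in HS replicate 1, with a median ratio of its log2 change to that of the other HS libraries of 0.77, and 42 had the opposite sign. The same measure gave 492 of 502 genes (98.0%) for HS replicate 2 and 412 of 430 (95.8%) for HS replicate 3, each called from its own other 2 libraries. These lists were not chosen alike. Their median change in the calling libraries was 1.94 for HS replicate 1, 2.60 for HS replicate 2 and 2.62 for HS replicate 3, so the shares past 2-fold are not comparable between them and are given as a description. For genes called down the shares were 39.3% of 649 in HS replicate 1, 75.1% of 213 in HS replicate 2 and 78.7% of 169 in HS replicate 3.

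**Figure D5:**
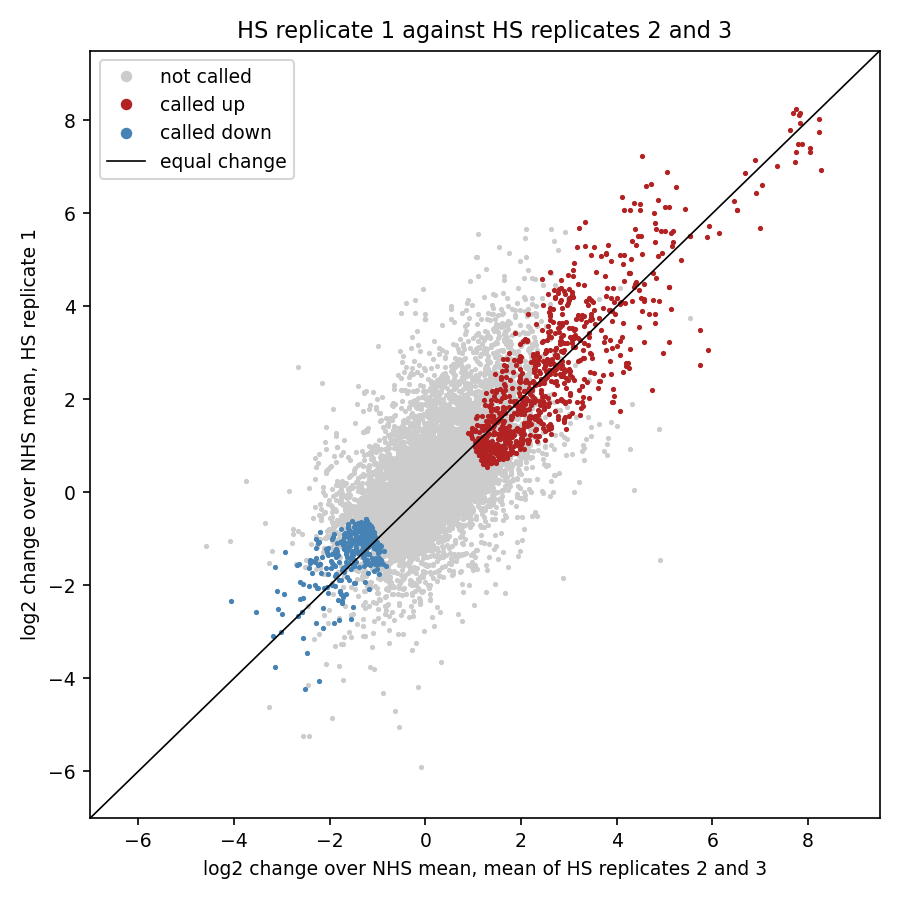
Each point is 1 of 18470 tested genes, placed by its log2 change over the NHS mean in HS replicates 2 and 3 (x axis, mean of both) and in HS replicate 1 (y axis), red where called up and blue where called down with all 6 libraries. The line marks equal change. Many uncalled genes lie above the line, and 1503 of all genes were over 2-fold higher in HS replicate 1.

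Among the genes with the largest departure in HS replicate 1, some lay above and some below the other HS libraries. CBG19188, the ortholog of T27E4.1, had 1595, 197 and 249 normalized counts in HS larvae, against 116, 109 and 127 in NHS larvae, and was not called (1.86, SE 0.76). The FMRFamide-type peptide receptor Cbr-frpr-6 had 0, 75.5 and 40.5 in HS larvae and 56.5, 53.0 and 68.8 in NHS larvae. The enoyl-CoA hydratase Cbr-ech-9 had 54.8, 464 and 229 in HS larvae and 13.1, 9.46 and 11.3 in NHS larvae (3.89, SE 0.72), and the acid phosphatase Cbr-pho-9 had 256, 990 and 996 in HS larvae and 57.8, 68.1 and 70.9 in NHS larvae (3.25, SE 0.52). The calls of Cbr-ech-9 and Cbr-pho-9 were lost without any 1 library other than HS replicate 1 (limma adjusted p of up to 0.0327), and their changes were 4.74 and 3.90 without it. By list, HS replicate 1 had a median log2 difference from the other HS libraries of −0.72 in HSP90, J-domain and partner genes, −0.44 in small heat shock proteins, −0.51 in nuclear hormone receptors, 0.43 in collagens, 0.46 in sperm and yolk protein genes and 0.85 in irld genes, against 0.03 over all genes. Over the orthologs of genes raised in C. elegans the median for HS replicate 1 was 0.34. Among the 20 chaperone genes called up, all but CBG18240, CBG13233 and Cbr-dnj-13 had their lowest HS value in this library.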

How the data were processed

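Whole L2 larvae of C. briggsae AF16 were sequenced in 3 HS (34 °C, 30 min) and 3 NHS (20 °C) libraries. The deposited values are signal, normalized counts per gene: the authors assigned reads of stranded total RNA libraries to mRNA transcripts with Salmon 0.13.1 and normalized the gene estimates with DESeq2 1.18.1. The values were multiples of a fixed step per library in most but not all genes (88.6% whole to within 0.05 in all 6), so count tests were not run, and depth was estimated as a library's sum divided by that step. One column spells the strain with another digit and was taken as NHS replicate 3. Columns not used numbered 0, and no 2 libraries were identical.

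Genes with a mean of at least 2 were tested as log2(value + 1) with limma 3.58.1 in R 4.3.3 (trend and robust variances, statmod 1.5.0), two-sided, with Benjamini-Hochberg adjustment. Called means an adjusted p under 0.01 and a change over 2-fold, the thresholds of the study. On simulated data of 17809 genes the fit called 46% of genes changed 2-fold, 96% at 4-fold and 100% at 8-fold, and 0 unchanged genes. Those data were drawn around the NHS means with the same dispersion for every gene, without a departing library such as HS replicate 1. The shares are a check of the fit and do not give its power or error rate in these libraries. The methods call the replicates biological. Each p-value sets a gene's difference between HS and NHS against the spread between these libraries, with variances moderated over all genes.

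Names, orthologs and HSE lists come from the study's supplementary tables. A C. briggsae genome or annotation was not used here, so no sequence is shown. Named genes were the study's 3 examples, the 15 largest calls each way with a name, a mean of at least 10 and groups that do not overlap, up to 6 called members of each list and all chaperones, called Hac-HSE genes, the 10 genes each way with the largest departure in HS replicate 1, the 6 largest and smallest changes among orthologs, and up to 2 unnamed genes each way; the text gives a selection. Members and lists were chosen with earlier results of these data known. Alternatives were other pseudocounts (0.5, 5), filters, scalings, thresholds, a replicate block, library weights and leaving out each library. Python 3.11.15, pandas 2.3.3, numpy 2.4.6 and matplotlib 3.10.9 were used.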

Additional observations from a re-analysis of the deposited data

Results flagged for a closer look

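Of the ortholog pairs named in the text 20 were set side by side. In 15 of them the change in C. briggsae differed from that in C. elegans in the joined limma fit (adjusted p under 0.01 and a difference over 2-fold on the log2 scale). Genes were named by rules that favour large changes, so 15 of 20 is no measure of how often pairs differ. Over all 1175 pairs 262 had a larger change in C. briggsae and 360 a smaller one. Since all pairs come from lists of genes raised in either species in these same libraries, these counts say nothing of the genome as a whole. Larger changes in C. briggsae, as log2 differences, were found for CBG00919 (3.84), Cbr-oac-14 (3.79), Cbr-ptr-16 (3.47), Cbr-srh-17 (3.28), Cbr-nud-1 (2.92), Cbr-hsp-43 (2.01), Cbr-cdc-37 (1.94), Cbr-hsp-90 (1.70) and Cbr-hsp-4 (1.49). Smaller ones were found for Cbr-srsx-6 (−4.24), Cbr-hsp-12.6 (−3.82), CBG26851 (−3.51), CBG19188 (−3.21), Cbr-hsp-12.3 (−3.09) and Cbr-col-138 (−2.91). Cbr-srsx-6 and Cbr-col-138 fell in C. briggsae (−1.83 and −1.53) and rose in C. elegans (2.41 and 1.38). CBG26851 was paired here with F52G3.4, as in the study's ortholog table, while the study's text pairs it with another gene, not analysed here. CBG26851 and CBG19188 had their highest value in HS replicate 1, and without it their C. briggsae changes were 2.44 and 0.91, against 6.66 and 5.07 in C. elegans.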

How the results depend on the processing

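The balance of calls turned round with equal totals but not with equal upper quartiles, which gave 837 up and 314 down. Equal totals in all libraries left 1479 genes down, 24 of them list members and 32 orthologs of C. elegans raised genes, against 320, 6 and 6 as deposited, and Cbr-hsp-1 (−0.0277), Cbr-dnj-22 (−0.109), Cbr-ddl-1 (−0.297) and Cbr-ifb-2 (−0.193) changed sign, none of them called either way. Library weights, which gave HS replicate 1 a weight of 0.197, raised the counts to 1337 up and 698 down (13 list members and 17 such orthologs down) and turned Cbr-col-52 to −0.0489. Without the trend and robust options 544 were up and 178 down, with 89 of 139 list members, 17 of 33 Hac-HSE genes up and 3 such orthologs down. With no minimum fold 1501 were up and 1285 down (22 list members and 18 orthologs down). At an adjusted p under 0.05, 1459 were up and 594 down (265 orthologs up and 14 down). Over fits without 1 library, 348 to 1228 genes were up and 68 to 649 down, 65 to 169 list members up and 1 to 13 down, 79 to 209 orthologs up and 0 to 18 down, 11 to 38 Hac-HSE genes up and 181 to 429 Hin-HSE genes up, the highest each time being without HS replicate 1. CBG19481 lay between −0.159 and 0.179 and Cbr-col-52 between −0.167 and 0.863 in these fits. The SD of the departure of HS replicate 1 was 0.583 at a mean of at least 10 and 0.55 as log2(value + 5), above every other library in both. Same-numbered HS and NHS libraries had deviations that correlated at 0.0213, 0.078 and 0.0669, and each library correlated best with its own number. Such weak values cannot settle whether the samples were prepared in pairs, and the main fit used no pairing. With a replicate block 724 genes were up and 338 down. For the 91 genes named in the text, 1374 values under an alternative stayed on their side of the threshold with their direction, 159 lost the call and 5 gained it. The cause of these shifts was not tested. Values under 10 rest on few reads, and near-identical copies share theirs.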
